A study of Mus musculus with 20 samples.

Results

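In DN3 thymocytes, the response to loss of the coregulator gene Zmiz1 was set, gene by gene, against the response to blockade of Notch1. The comparison used 12 of the 20 libraries of the series, those made with the SMARTer kit, and all 23284 genes of the count table, of which 13557 had enough reads to be tested. For each gene the log2 fold change of AntiNRR over IgG was subtracted from the log2 fold change of DeltaMxCre over MxCre. A positive difference therefore means that the gene stood higher after Zmiz1 loss, relative to its control, than after Notch1 blockade. Genes whose effects both passed the test with opposite signs, and whose difference passed too, are called opposed.

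All animals were C57BL/6 mice, and 50 ng of RNA from 100K to 400K sorted thymocytes went into a library. MxCre mice carried the interferon-inducible MxCre transgene without floxed Zmiz1, DeltaMxCre mice carried it with Zmiz1 f/f, and both groups (3 mice each) received 5 injections of 40 mcg pI-pC at intervals of 2 days and were examined 8 weeks later. Mice of the IgG and AntiNRR groups (3 libraries each) received 10 mg/kg of a control antibody or of one that binds Notch1 at its negative regulatory region (NRR) and were examined after 24 h, without pI-pC. Perturbed gene, genetic or antibody means, duration and pI-pC exposure go together and cannot be told apart, and how many mice gave the antibody-treated libraries is not stated, so p-values for those groups measure spread between samples.

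Notch1 is held in an off state by its NRR until ligand pulls on it. Cleavage then frees the intracellular domain, which enters the nucleus and joins RBPJ and MAML at target genes. In DN3 thymocytes this signal sustains Il2ra, Ptcra, Dtx1, Hes1 and Myc up to beta-selection, and ZMIZ1 is a PIAS-like protein that binds Notch1 as a coregulator. Mx1 promoter activity is not limited to thymocytes, so other cells of DeltaMxCre mice could also have lost Zmiz1.

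Total expected counts were 11695668 to 19133149 per library. Each library expressed the genes of early T cells, with Rag1 between 1860 and 4940 CPM (counts scaled to library size) and Bcl11b between 1200 and 2030 CPM. The labels give the gate as CD44-positive and CD25-negative, the reverse of textbook DN3 cells, yet Il2ra, which encodes CD25, lay at 543 to 5890 CPM and Cd44 at 0.551 to 7.23 CPM. The myeloid gene Cd14, the NK gene Ncr1 and the epithelial gene Foxn1 had no counts in the 12 libraries. Other genes of these lists were present, such as Lyz2 (9.52 to 23.6 CPM) and Epcam (55.9 to 87.2 CPM). A level of 1 CPM was reached in some library by 8 of 14 myeloid, 8 of 16 NK and 6 of 12 thymic epithelial genes. Zero counts of single genes therefore do not show that these cells were absent. MxCre 3 and AntiNRR 3 stood apart from the other 2 libraries of their groups on the first 2 principal components. In bulk RNA, fewer cells of a type and less RNA per cell cannot be told apart.

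The difference of effects passed the test for 167 of 13557 genes (1.23%), at an adjusted p (FDR, from edgeR's quasi-likelihood F test, Benjamini-Hochberg adjusted) under 0.05. It was positive for 103 genes (0.760%) and negative for 64 (0.472%). Against MxCre, 399 genes (2.94%) were called in DeltaMxCre, of which 227 rose (1.67%) and 172 fell (1.27%). Against IgG, 551 genes (4.06%) were called in AntiNRR, of which 225 rose (1.66%) and 326 fell (2.40%). Without MxCre 3, the difference passed for 290 genes. Without IgG 2 it passed for 99 and without IgG 3 for 101.

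Most genes with a called difference had a called effect after 1 of the perturbations. For 70 of the 167, the AntiNRR effect alone was called, with 47 falls and 23 rises. For 66, the DeltaMxCre effect alone was called, with 36 rises and 30 falls. Both effects were called for the 13 opposed genes, and neither for 18. The estimates of both effects had opposite signs in 157 of the 167 genes, a count that selection on the difference favours. Of the 79 genes called after both perturbations, 66 moved the same way, 43 up and 23 down, and 0 of these 66 had a called difference by edgeR's test or by DESeq2 (unadjusted p under 0.05 for 4). The remaining 13, which are 3.26% of the 399 DeltaMxCre calls and 2.36% of the 551 AntiNRR calls, were the opposed genes.

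**Figure D1:**
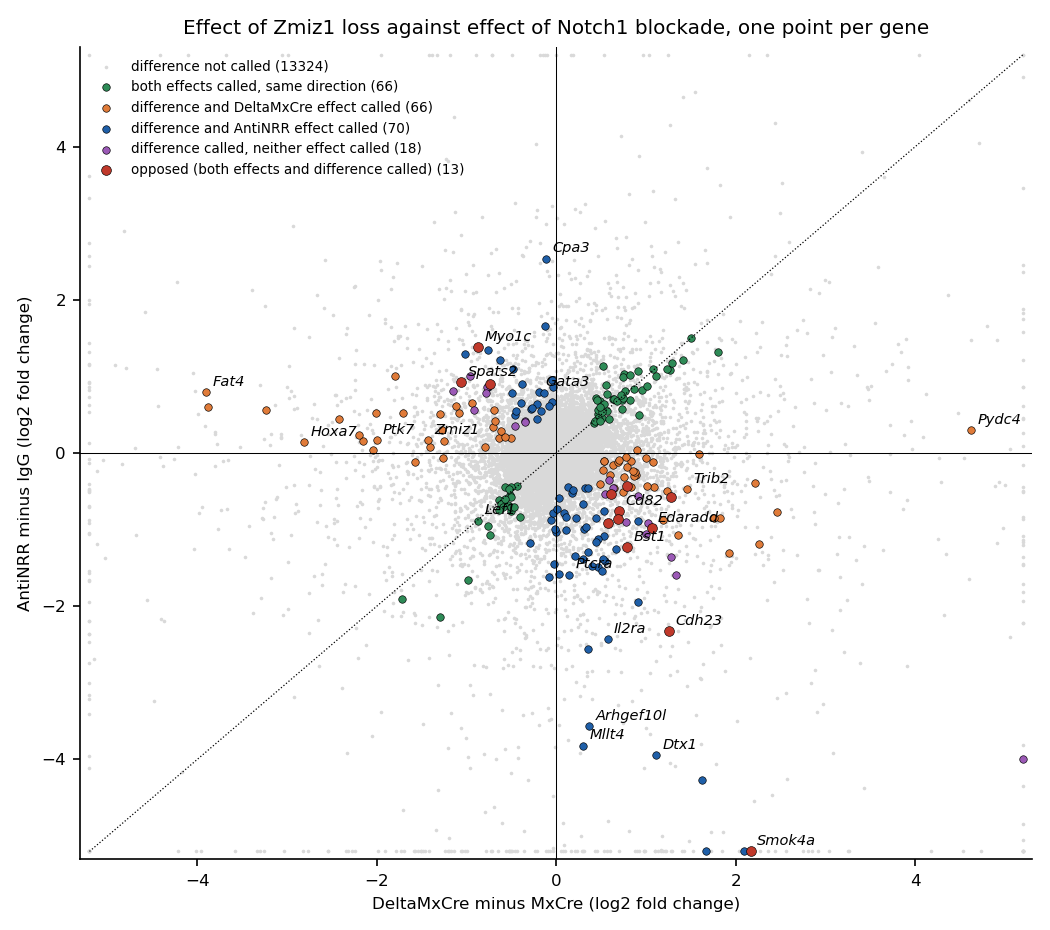
Log2 fold change of DeltaMxCre over MxCre (x axis) against that of AntiNRR over IgG (y axis), one point per tested gene, coloured by which effects and differences passed at FDR under 0.05; the dotted line marks equal effects and points beyond the axes are drawn at the edge. The 66 genes called the same way after both perturbations lie near the dotted line, and the 13 opposed genes lie above left and below right of the origin.

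Across all genes, the estimates of the 2 effects were nearly uncorrelated (Pearson r = 0.00987, Spearman correlation 0.0934 across 13557 genes, which are not independent replicates and share libraries of similar depth). Most of these genes were called in neither comparison, and error in the estimates lowers a correlation. The median standard error (SE) was 0.28 on the log2 scale for the DeltaMxCre effect, 0.281 for the AntiNRR effect and 0.397 for their difference. A difference was thus measured less precisely than either effect.

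Notch targets were among the genes whose responses differed. Of 17 tested members of the Notch target list, 4 (23.5%) had a called difference, against 1.23% of all genes tested. In all 4 the DeltaMxCre effect was above the AntiNRR effect. They were Dtx1, Il2ra, Ptcra and Trib2. In AntiNRR 5 members fell, and in DeltaMxCre 1 rose (Trib2) and 1 fell (Igf1r, the receptor gene of insulin-like growth factors, log2 fold change −0.53, adjusted p = 0.0336). Among all genes tested, 2.40% fell in AntiNRR, and 1.67% rose and 1.27% fell in DeltaMxCre. The median log2 fold change of the 17 was −0.04 in DeltaMxCre and −0.45 in AntiNRR. The median difference was 0.42, against −0.01 over all genes tested.

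Dtx1 (chromosome 5, 120680203–120711867) encodes Deltex1, a ubiquitin ligase that acts on Notch. It stood at 138, 188 and 192 CPM in MxCre and at 386, 356 and 383 CPM in DeltaMxCre. It stood at 162, 191 and 162 CPM in IgG and at 4.95, 13.4 and 15.8 CPM in AntiNRR. The control groups overlapped, all DeltaMxCre libraries were above them and all AntiNRR libraries were below them. The fall in AntiNRR was called (log2 fold change −3.94 ± 0.36 SE, adjusted p = 0.000311, n = 3 and 3). The DeltaMxCre effect of 1.12 ± 0.31 was not called by edgeR's test over the 12 libraries (adjusted p = 0.1), and the difference was (5.06 ± 0.47, adjusted p = 0.000889). In 6 of 22 alternative settings the DeltaMxCre rise was called too, which makes Dtx1 opposed there. These were DESeq2 (0.0291), limma voom (1.02e-05), no robust shrinkage (0.0116), all 20 libraries (0.0118), and the fits without AntiNRR 1 (1.16e-05) or AntiNRR 3 (0.0437).

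Il2ra (chromosome 2, 11642792–11693194), the gene of the IL-2 receptor alpha chain CD25, stood at 2371, 3493 and 4379 CPM in MxCre and at 4437, 4915 and 5886 CPM in DeltaMxCre. It stood at 3206, 3792 and 3635 CPM in IgG and at 543, 848 and 579 CPM in AntiNRR. AntiNRR lay below every other library, and each DeltaMxCre library lay above each MxCre library. The fall in AntiNRR was −2.43 ± 0.24 (adjusted p = 0.000211), the DeltaMxCre effect of 0.57 ± 0.22 was not called (adjusted p = 0.229; 0.0497 with all 20 libraries and 0.0297 with a replicate block, where it was), and the difference was 3.01 ± 0.32 (adjusted p = 0.000961). CD25 is also named in the labels' gate, whose part in the result was not tested.

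Ptcra (chromosome 17, 46755663–46763712) encodes the invariant pre-T cell receptor alpha chain. It stood at 161, 201 and 135 CPM in MxCre and at 188, 201 and 162 CPM in DeltaMxCre. It stood at 228, 208 and 206 CPM in IgG and at 83.3, 57.1 and 73.1 CPM in AntiNRR. MxCre and DeltaMxCre overlapped, while AntiNRR lay below all other libraries. It fell by 1.59 on the log2 scale in AntiNRR (SE 0.15, adjusted p = 5.32e-07), and the difference was 1.73 ± 0.21 (adjusted p = 1.3e-05).

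Trib2 (chromosome 12, 15791725–15816962), a pseudokinase gene, had its called effect after Zmiz1 loss. It stood at 24.4, 29.3 and 13 CPM in MxCre and at 75.6, 55 and 52.1 CPM in DeltaMxCre. It stood at 16.9, 19.4 and 14.2 CPM in IgG and at 13.7, 11.4 and 11.1 CPM in AntiNRR. DeltaMxCre lay above every other library, and AntiNRR lay below IgG with no overlap but a small gap. It rose in DeltaMxCre (1.45 ± 0.26, adjusted p = 0.00192), did not pass in AntiNRR (−0.47 ± 0.26, adjusted p = 0.388), and had a difference of 1.93 ± 0.37 (adjusted p = 0.00426).

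**Figure D2:**
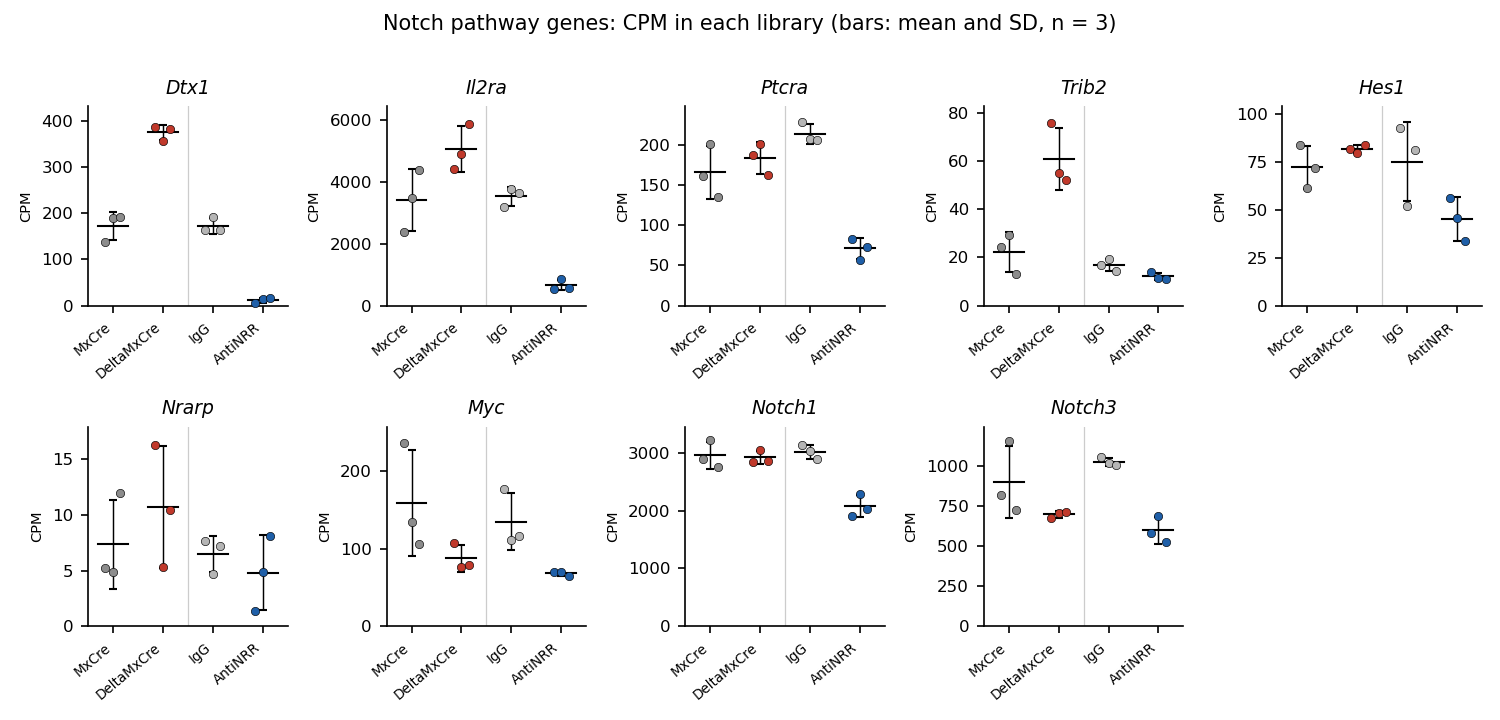
CPM in each library (points), with the group mean and SD (bars, n = 3), for 9 Notch pathway genes in MxCre, DeltaMxCre, IgG and AntiNRR. Dtx1, Il2ra and Ptcra are low only in AntiNRR among the 4 groups, Trib2 is high in DeltaMxCre, and Myc is lower on average in both perturbed groups.

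Other Notch pathway genes did not separate the perturbations by the test of the difference. Hes1, a repressor induced by Notch, stood at 83.5, 61.3 and 71.5 CPM in MxCre, 81.8, 79.5 and 83.8 in DeltaMxCre, 92.4, 52 and 81 in IgG and 56.3, 45.6 and 33.7 in AntiNRR. Its fall in AntiNRR (−0.73 ± 0.20, adjusted p = 0.0291) did not survive the removal of IgG 1 (0.189), IgG 3 (0.131), AntiNRR 2 (0.0907) or AntiNRR 3 (0.144). The difference of 0.91 ± 0.27 did not pass (adjusted p = 0.111). Nrarp, a feedback inhibitor of Notch, overlapped among all 4 groups at 1.38 to 16.3 CPM.

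Notch1 (chromosome 2, 26457902–26503822) fell in AntiNRR from 3017 ± 119 to 2075 ± 190 CPM (mean ± SD, n = 3; −0.54 ± 0.10, adjusted p = 0.00186) and was at 2955 ± 237 and 2918 ± 112 CPM in MxCre and DeltaMxCre. Notch3 fell in AntiNRR (−0.78 ± 0.13, adjusted p = 0.000592), with −0.36 ± 0.13 in DeltaMxCre (adjusted p = 0.145; 0.0215 without MxCre 3). Their differences, 0.52 ± 0.15 and 0.41 ± 0.19, did not pass (adjusted p = 0.0757 and 0.356). Myc, the growth regulator downstream of Notch1, gave similar estimates of −0.86 ± 0.28 in DeltaMxCre and −0.99 ± 0.28 in AntiNRR, neither of them called by edgeR's test over the 12 libraries (adjusted p = 0.151 and 0.0927). Both were called with DESeq2 (0.0119 and 0.00153), without robust shrinkage, with all 20 libraries, with a replicate block (0.00353 and 0.000449) and without MxCre 3 (0.0337 and 0.02), and the AntiNRR effect also without MxCre 1 (0.000571). The difference for Myc was 0.13 ± 0.40 (adjusted p = 0.935), an interval wide enough to hold a sizeable difference in either direction.

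RBPJ, the DNA-binding partner of Notch, recognises a motif with the core TGGGAA, and promoters of members with different patterns were read for it on both strands. The sequences (RefSeq, GRCm38.p6) are the 250 bases before each listed transcript start, 5′ to 3′ on the gene's strand, with each TGGGAA in capitals. They lie at chr17:46763713-46763962 for Ptcra (minus strand), chr5:120711670-120711919 for Dtx1 (minus), chr10:60696491-60696740 for Cdh23 (minus) and chr11:75650269-75650518 for Myo1c (plus, the first of 3 listed promoters). Ptcra and Dtx1 fell with Notch1 blockade, Cdh23 was opposed with a fall in AntiNRR, and Myo1c was opposed with a rise.
Ptcra: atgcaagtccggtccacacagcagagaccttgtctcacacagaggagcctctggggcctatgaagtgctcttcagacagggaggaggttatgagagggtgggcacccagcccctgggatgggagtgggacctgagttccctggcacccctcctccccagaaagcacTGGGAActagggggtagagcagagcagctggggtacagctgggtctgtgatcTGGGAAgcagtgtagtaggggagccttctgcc
Dtx1: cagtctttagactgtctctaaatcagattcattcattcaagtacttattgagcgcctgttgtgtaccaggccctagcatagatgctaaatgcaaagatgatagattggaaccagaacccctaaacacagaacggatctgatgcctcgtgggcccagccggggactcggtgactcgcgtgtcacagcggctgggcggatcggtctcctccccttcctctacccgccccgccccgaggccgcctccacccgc
Cdh23: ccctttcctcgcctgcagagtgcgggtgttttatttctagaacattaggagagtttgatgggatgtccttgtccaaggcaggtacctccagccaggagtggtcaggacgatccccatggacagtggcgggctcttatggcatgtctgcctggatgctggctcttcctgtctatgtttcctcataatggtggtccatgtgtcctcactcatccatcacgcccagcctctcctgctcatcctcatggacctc
Myo1c: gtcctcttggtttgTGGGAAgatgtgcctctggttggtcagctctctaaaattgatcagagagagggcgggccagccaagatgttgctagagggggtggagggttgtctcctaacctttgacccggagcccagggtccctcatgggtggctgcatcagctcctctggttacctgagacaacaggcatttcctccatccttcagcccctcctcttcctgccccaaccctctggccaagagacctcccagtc

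The Ptcra window held 2 matches, starting 84 and 32 bases before the transcript start, the Myo1c window held 1, starting 236 bases before it, and the Dtx1 and Cdh23 windows held none. The Dtx1 window lies mostly within the gene coordinates given above, and the Cdh23 window overlaps its own slightly. Bases outside the Dtx1 coordinates were therefore read only in small part. Of 137 genes with a called difference and a listed promoter, 42 (30.7%) had a match, against 24.1% of the 27025 genes in the promoter table. A gene counts here if any of its promoters matched. Counted by promoter, 43 of 180 (23.9%) had a match, against 21.6% of all 32851. The share of genes was 29.7% (19 of 64) with an AntiNRR call alone and 34% (17 of 50) with a DeltaMxCre call alone. Of 9 opposed genes with a listed promoter, 1 had a match. A match describes the letters in these windows and is not a measured binding site.

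Opposed genes numbered 13, or 0.0959% of the genes tested. Rises in DeltaMxCre with falls in AntiNRR made up 10: Bst1, Cd82, Cdh23, Plxnd1, Edaradd, Zcchc2, Abhd15, Pcmtd1, Tbrg3 and Smok4a. The reverse was seen for 3: Myo1c, Spats2 and Rn45s.

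Bst1 (chromosome 5, 43818880–43843468), which encodes the ADP-ribosyl cyclase CD157, stood at 91.4, 118 and 115 CPM in MxCre and at 176, 209 and 175 CPM in DeltaMxCre. It stood at 143, 131 and 158 CPM in IgG and at 66.4, 55.4 and 62.5 CPM in AntiNRR. The 2 control groups did not overlap each other, AntiNRR was lowest and DeltaMxCre was highest. Bst1 rose in DeltaMxCre (0.79 ± 0.13, adjusted p = 0.00115) and fell in AntiNRR (−1.23 ± 0.14, adjusted p = 5.33e-06), with a difference of 2.02 ± 0.19 (adjusted p = 5.5e-07).

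Cdh23 (chromosome 10, 60302748–60696513), a cadherin gene known from the tip links of hair cells, stood at 30.7, 83 and 49.2 CPM in MxCre and at 121, 136 and 132 CPM in DeltaMxCre. It stood at 91.4, 87.1 and 96.8 CPM in IgG and at 18.6, 21.3 and 15.1 CPM in AntiNRR. MxCre spread widely and lay below IgG, and DeltaMxCre lay above all other libraries. The effects were 1.26 ± 0.25 (adjusted p = 0.0119) and −2.32 ± 0.26 (adjusted p = 0.000131), and the difference was 3.58 ± 0.36 (adjusted p = 3.45e-05). The rise was no longer called without MxCre 3 (adjusted p = 0.0777) or DeltaMxCre 2 (0.0549).

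Cd82 (chromosome 2, 93419102–93462950), a tetraspanin gene, stood at 144, 170 and 174 CPM in MxCre and at 248, 230 and 312 CPM in DeltaMxCre. It stood at 199, 217 and 220 CPM in IgG and at 123, 134 and 118 CPM in AntiNRR. DeltaMxCre was the highest group and AntiNRR the lowest, with effects of 0.70 ± 0.13 (adjusted p = 0.0021) and −0.76 ± 0.13 (adjusted p = 0.000395). Plxnd1, a semaphorin receptor that guides thymocyte migration in mice, moved from 45.1 ± 12.6 to 72.8 ± 9.93 CPM in DeltaMxCre and from 47.3 ± 1.57 to 26 ± 3.1 CPM in AntiNRR, with a difference of 1.55 ± 0.27 (adjusted p = 0.0016).

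Spats2 (chromosome 15, 99125926–99213215) had the reverse pattern. It stood at 103, 74.4 and 102 CPM in MxCre and at 54.6, 43.3 and 36.8 CPM in DeltaMxCre. It stood at 90.5, 86.1 and 68.2 CPM in IgG and at 144, 177 and 143 CPM in AntiNRR. The controls overlapped, DeltaMxCre lay below them and AntiNRR lay above them. It fell in DeltaMxCre (−1.06 ± 0.17, adjusted p = 0.000537) and rose in AntiNRR (0.92 ± 0.16, adjusted p = 0.000848), with a difference of −1.98 ± 0.23 (adjusted p = 1.3e-05).

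Myo1c (chromosome 11, 75650519–75674643), which encodes a membrane-linked class I myosin, stood at 41.9, 27.9 and 48.7 CPM in MxCre and at 17.2, 24.8 and 22.7 CPM in DeltaMxCre. It stood at 30.9, 28.8 and 31 CPM in IgG and at 76.5, 71.6 and 88.8 CPM in AntiNRR. AntiNRR was above all other libraries, and the gap between MxCre and DeltaMxCre was narrow. The effects were −0.87 ± 0.20 (adjusted p = 0.0156) and 1.39 ± 0.20 (adjusted p = 0.000144), with a difference of −2.26 ± 0.29 (adjusted p = 2.41e-05). Its fall in DeltaMxCre was no longer called when MxCre 3 (0.0776), DeltaMxCre 1 (0.0805) or DeltaMxCre 3 (0.0534) was left out.

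Of the other opposed genes, Edaradd, an adaptor of the ectodysplasin receptor, went from 18 ± 2.2 to 37.6 ± 5.82 CPM in DeltaMxCre and from 21.9 ± 2.02 to 11.1 ± 0.904 CPM in AntiNRR (difference 2.04 ± 0.34, adjusted p = 0.00103). Zcchc2, Abhd15, Pcmtd1 and Tbrg3 had differences of 1.49, 1.14, 1.22 and 1.85. Smok4a, a sperm motility kinase gene, rose from 0.657, 3.75 and 8.07 CPM in MxCre to 17.5, 18.1 and 20.7 CPM in DeltaMxCre. It had 3.66, 2.71 and 2.66 CPM in IgG and no count in AntiNRR, at least 44.0-fold lower than IgG against a floor of 3 counts over the group. Rn45s, the precursor of ribosomal RNA, took 6.76 to 8.82% of counts in MxCre, 4.71 to 5.07% in DeltaMxCre, 2.75 to 3.74% in IgG and 4.77 to 6.8% in AntiNRR.

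**Figure D3:**
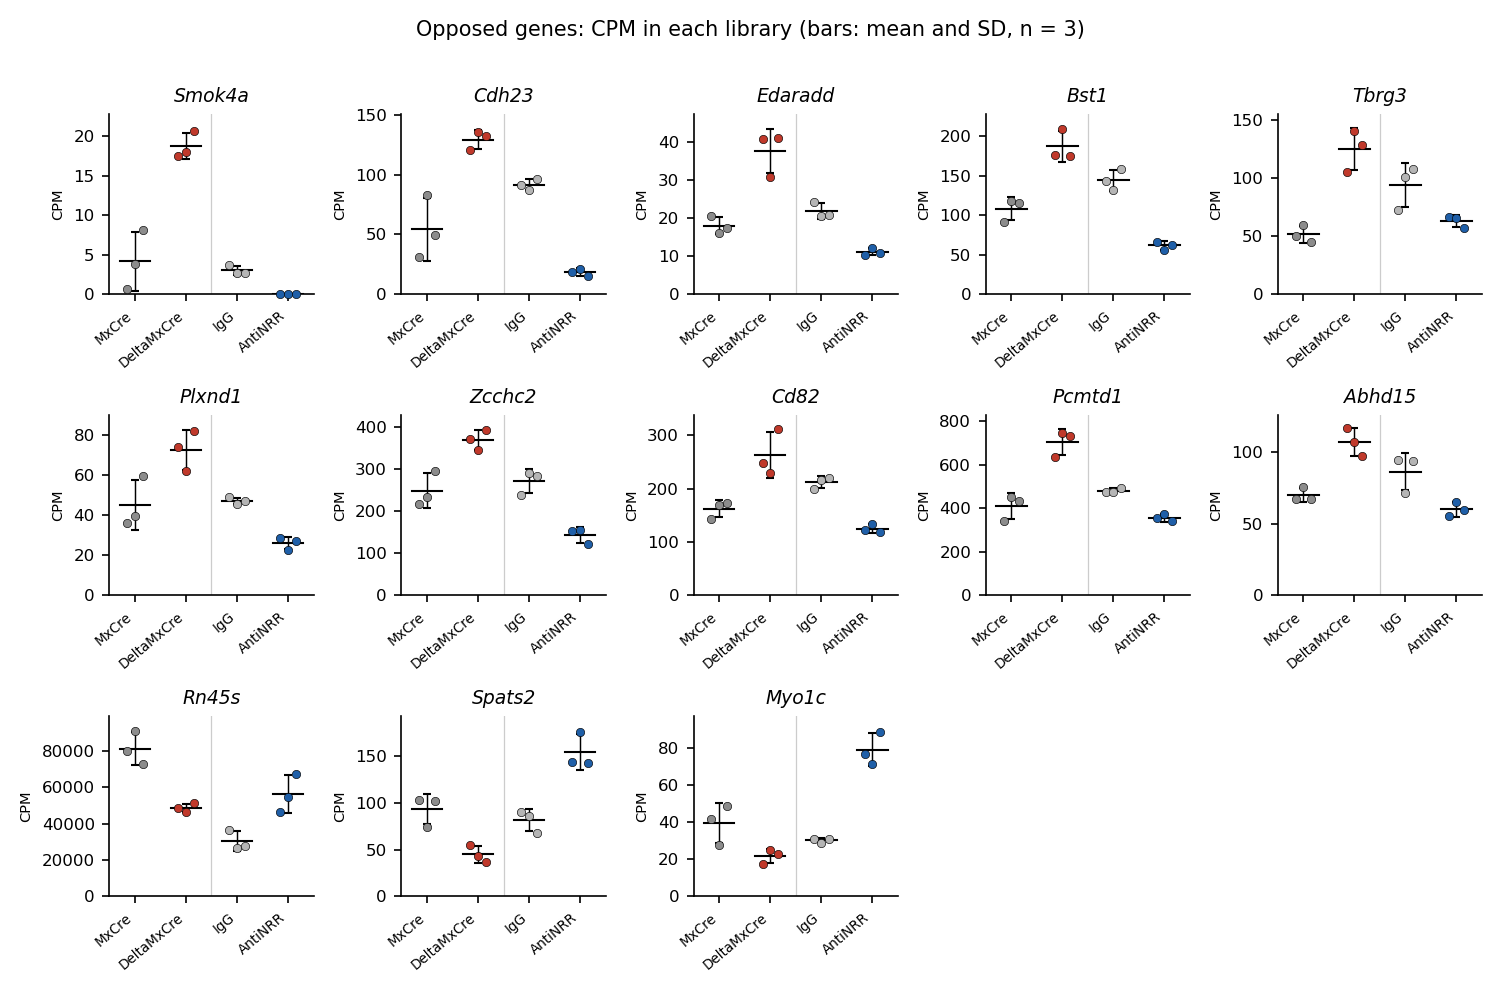
CPM in each library (points), with the group mean and SD (bars, n = 3), for the 13 opposed genes, ordered by the difference of effects. In the first 10 panels DeltaMxCre lies above MxCre and AntiNRR below IgG, and in the last 3, Rn45s, Spats2 and Myo1c, the order is reversed.

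Under the 22 alternative settings, the difference for each of the 13 kept its sign wherever the gene was in the fit, and was called in all 22 except for Rn45s (20 of 21). Calls of the single effects were less stable. Bst1, Cd82 and Spats2 were opposed in all 22 settings. Zcchc2 lost its DeltaMxCre call without MxCre 1 (adjusted p = 0.0578) or DeltaMxCre 3 (0.0648). Edaradd lost a call without DeltaMxCre 3 (0.0802), IgG 1 (0.0804) or AntiNRR 1 (0.0691), and Pcmtd1 lost its AntiNRR call without any 1 of the 6 antibody libraries (0.0599 to 0.111). Tbrg3, Abhd15, Plxnd1 and Smok4a were opposed in 12 of 22 settings each. Tbrg3 lost its AntiNRR call without DeltaMxCre 2, DeltaMxCre 3, IgG 2, IgG 3 or any AntiNRR library (up to 0.232). Abhd15 lost a call without MxCre 1, DeltaMxCre 1, DeltaMxCre 2, IgG 1, IgG 3 or any AntiNRR library (up to 0.177). Among the fits with 1 library left out, Plxnd1 kept both calls only without MxCre 3, AntiNRR 1 or AntiNRR 3 (otherwise up to 0.225). Among the same fits, Smok4a kept both only without MxCre 3 or an AntiNRR library (otherwise up to 0.149).

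Arhgef10l and Mllt4 fell after Notch1 blockade and had no called effect after Zmiz1 loss. Arhgef10l (chromosome 4, 140514485–140666007), a guanine nucleotide exchange factor gene, stood at 129, 208 and 118 CPM in MxCre and at 170, 193 and 222 CPM in DeltaMxCre. It stood at 173, 178 and 164 CPM in IgG and at 10.8, 20.2 and 13.1 CPM in AntiNRR. The first 3 groups overlapped and AntiNRR lay far below. The AntiNRR effect was −3.56 ± 0.25 (adjusted p = 5.33e-06), with 0.37 ± 0.22 in DeltaMxCre (adjusted p = 0.455; 0.0431 without MxCre 2) and a difference of 3.93 ± 0.33 (adjusted p = 1.33e-05).

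Mllt4, which encodes the junction adaptor afadin, went from 77.9 ± 12.3 CPM under IgG to 5.64 ± 2.64 CPM under AntiNRR, while MxCre had 79.7 ± 43.7 CPM and DeltaMxCre 98.1 ± 14.8 CPM. Its difference (4.12 ± 0.65, adjusted p = 0.019) was lost without any 1 of 5 libraries, MxCre 2, DeltaMxCre 3, IgG 2, IgG 3 or AntiNRR 3 (up to 0.0922). Il7r, the IL-7 receptor gene, went from 165 ± 11.5 CPM under IgG to 83.2 ± 9.05 CPM under AntiNRR and was at 159 ± 14.2 and 157 ± 43.4 CPM in MxCre and DeltaMxCre (difference 0.97 ± 0.21, adjusted p = 0.0138). Without DeltaMxCre 3, whose level of 206 CPM was the highest, the Il7r difference was not called (0.0719). Erg, an ETS factor gene of early T cell precursors, went from 38.7 ± 3.48 to 18.2 ± 4.4 CPM in AntiNRR (difference 1.62 ± 0.32, adjusted p = 0.00559).

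Transcription factor genes of the T lineage had mostly negative called differences. Of 31 tested list members, 1 had a positive called difference (Erg) and 4 a negative one (Gata3, Satb1, Tcf7 and Hoxa7), 16.1% in all. In AntiNRR 5 members rose and 3 fell, and in DeltaMxCre 5 fell. Among all genes tested, 1.23% had a called difference, 1.66% rose and 2.40% fell in AntiNRR, and 1.27% fell in DeltaMxCre. The median difference was −0.28. Gata3 (chromosome 2, 9857078–9887953), a factor of T lineage commitment, stood at 197, 134 and 184 CPM in MxCre, 142, 148 and 162 in DeltaMxCre, 152, 152 and 127 in IgG and 249, 244 and 253 in AntiNRR. AntiNRR was above every other library, with a rise of 0.79 ± 0.13 (adjusted p = 0.00041) and a difference of −0.98 ± 0.19 (adjusted p = 0.00405).

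Satb1, a chromatin organiser of thymocytes, went from 858 ± 54.6 CPM under IgG to 1256 ± 78.8 CPM under AntiNRR and was at 731 ± 71.2 and 651 ± 4.82 CPM in MxCre and DeltaMxCre (difference −0.72 ± 0.15, adjusted p = 0.00804; 0.0537 without IgG 2). Tcf7, the gene of TCF1, had its called effect in DeltaMxCre. It fell from 1373 ± 176 to 971 ± 49.5 CPM there (−0.50 ± 0.11, adjusted p = 0.00842), against 1126 ± 73.9 and 1284 ± 34.7 CPM in IgG and AntiNRR. The Tcf7 difference of −0.69 ± 0.15 (adjusted p = 0.0144) was lost without IgG 2 or IgG 3 (up to 0.079), and its fall without DeltaMxCre 2 (0.0574) or DeltaMxCre 3 (0.0529).

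Lef1, a relative of TCF1 that works with it in early thymocytes, fell after both perturbations. It stood at 339, 322 and 274 CPM in MxCre and at 182, 176 and 156 CPM in DeltaMxCre. It stood at 298, 316 and 273 CPM in IgG and at 137, 182 and 161 CPM in AntiNRR. Both perturbed groups were below both controls, with falls of −0.87 ± 0.12 (adjusted p = 0.000157) and −0.88 ± 0.12 (adjusted p = 0.000116) and a difference of 0.02 ± 0.17 (adjusted p = 0.983).

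Among other list members with a negative difference were genes of the immediate-early and heat-shock, p53 target and mast cell lists. Jund, an AP-1 subunit gene, went from 82.8 ± 17.1 CPM under IgG to 154 ± 17.4 CPM under AntiNRR, and from 99 ± 9.19 to 75.8 ± 13.5 CPM in DeltaMxCre (difference −1.28 ± 0.22, adjusted p = 0.0016; 0.171 in a fit of all 20 libraries). Cdkn1a, the p21 gene, went from 29.8 ± 0.851 to 51.4 ± 11.3 CPM in AntiNRR and from 25.9 ± 2.7 to 18.3 ± 1.43 CPM in DeltaMxCre (difference −1.29 ± 0.30, adjusted p = 0.0209). That call was missed when MxCre 1, DeltaMxCre 3, IgG 2, IgG 3 or AntiNRR 1 was left out (up to 0.095).

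Cpa3, a carboxypeptidase gene of mast cells that early progenitors also express, stood at 36.9, 14.4 and 20.7 CPM in MxCre and at 14.1, 25.4 and 27 CPM in DeltaMxCre. It stood at 29.5, 14.6 and 20.6 CPM in IgG and at 154, 117 and 104 CPM in AntiNRR. AntiNRR lay above all other libraries, which overlapped. It rose there by 2.54 ± 0.38 (adjusted p = 0.00337), and the difference was −2.65 ± 0.53 (adjusted p = 0.0376). The summed level of the mast cell and basophil list, of which 4 of 11 genes reached 1 CPM, was 102 to 160 CPM in MxCre, DeltaMxCre and IgG and 278 to 338 CPM in AntiNRR. That sum includes Cpa3 itself and is led by Kit, at 103 ± 9.31 CPM in IgG and 184 ± 29.7 CPM in AntiNRR (adjusted p = 0.000528). Of the 11 genes, 6 had no counts in any of the 12 libraries, among them Ms4a2, Mcpt8, Fcer1a and Cma1. Hdc reached 1.69 CPM and Gata2 0.226 CPM. The Cpa3 difference was missed when MxCre 3, DeltaMxCre 2, DeltaMxCre 3, IgG 2, IgG 3 or AntiNRR 2 was left out (up to 0.151), and the part of other cells in its rise was not tested.

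Falls after Zmiz1 loss that Notch1 blockade did not share started with the deleted gene. Zmiz1 (chromosome 14, 25457875–25666743) stood at 298, 360 and 334 CPM in MxCre and at 121, 132 and 116 CPM in DeltaMxCre. It stood at 310, 285 and 260 CPM in IgG and at 324, 311 and 324 CPM in AntiNRR. DeltaMxCre lay below all other libraries, with a difference of −1.59 ± 0.16 (adjusted p = 8.4e-07). Counts over the whole gene do not show how many cells kept an intact allele.

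Ptk7 (chromosome 17, 46564451–46630049), a pseudokinase of Wnt and planar polarity signalling, stood at 33.2, 30.9 and 43.8 CPM in MxCre and at 8.62, 8.9 and 9.41 CPM in DeltaMxCre. It stood at 47.9, 43.7 and 35.1 CPM in IgG and at 56.6, 37.4 and 48 CPM in AntiNRR. The groups other than DeltaMxCre overlapped, and the difference was −2.17 ± 0.31 (adjusted p = 9.3e-05). Fat4 (chromosome 3, 38884667–39011992), an atypical cadherin gene, stood at 22, 32.8 and 9.48 CPM in MxCre, 0.699, 1.94 and 1.54 in DeltaMxCre, 28.4, 30.9 and 29.9 in IgG and 59.2, 51.3 and 43.5 in AntiNRR. It fell in DeltaMxCre by 3.90 on the log2 scale (SE 0.39, adjusted p = 7.09e-06). Its AntiNRR estimate of 0.79 ± 0.32 did not pass (adjusted p = 0.209; 0.0495 without MxCre 3), although the AntiNRR libraries were the highest of all, and the difference was −4.69 ± 0.51 (adjusted p = 1.3e-05).

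Hoxa7, a homeobox gene of progenitors, went from 23.9 ± 6.07 to 3.4 ± 0.92 CPM in DeltaMxCre and was at 28.5 ± 14.9 and 31.6 ± 6.07 CPM in IgG and AntiNRR (difference −2.96 ± 0.50, adjusted p = 0.0016; 0.0673 with limma voom). Maged1, a MAGE family adaptor gene, went from 31.3 ± 8.46 to 6.79 ± 2.72 CPM (difference −2.43 ± 0.41, adjusted p = 0.00132). Cdc42ep4, an effector of CDC42, went from 33.8 ± 10.4 to 7.64 ± 3.42 CPM (difference −2.31 ± 0.47, adjusted p = 0.00725). Neither had a called effect in AntiNRR. Kcnh3, a potassium channel gene, went from 14.8 ± 7.05 to 4.29 ± 1.77 CPM in DeltaMxCre and from 25.8 ± 2.27 to 52 ± 2.81 CPM in AntiNRR, where it missed the threshold (1.01 ± 0.30, adjusted p = 0.0532) and passed in 9 of 22 alternatives (down to 0.00578), among them the fits without MxCre 2, MxCre 3, DeltaMxCre 1 or DeltaMxCre 3.

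**Figure D4:**
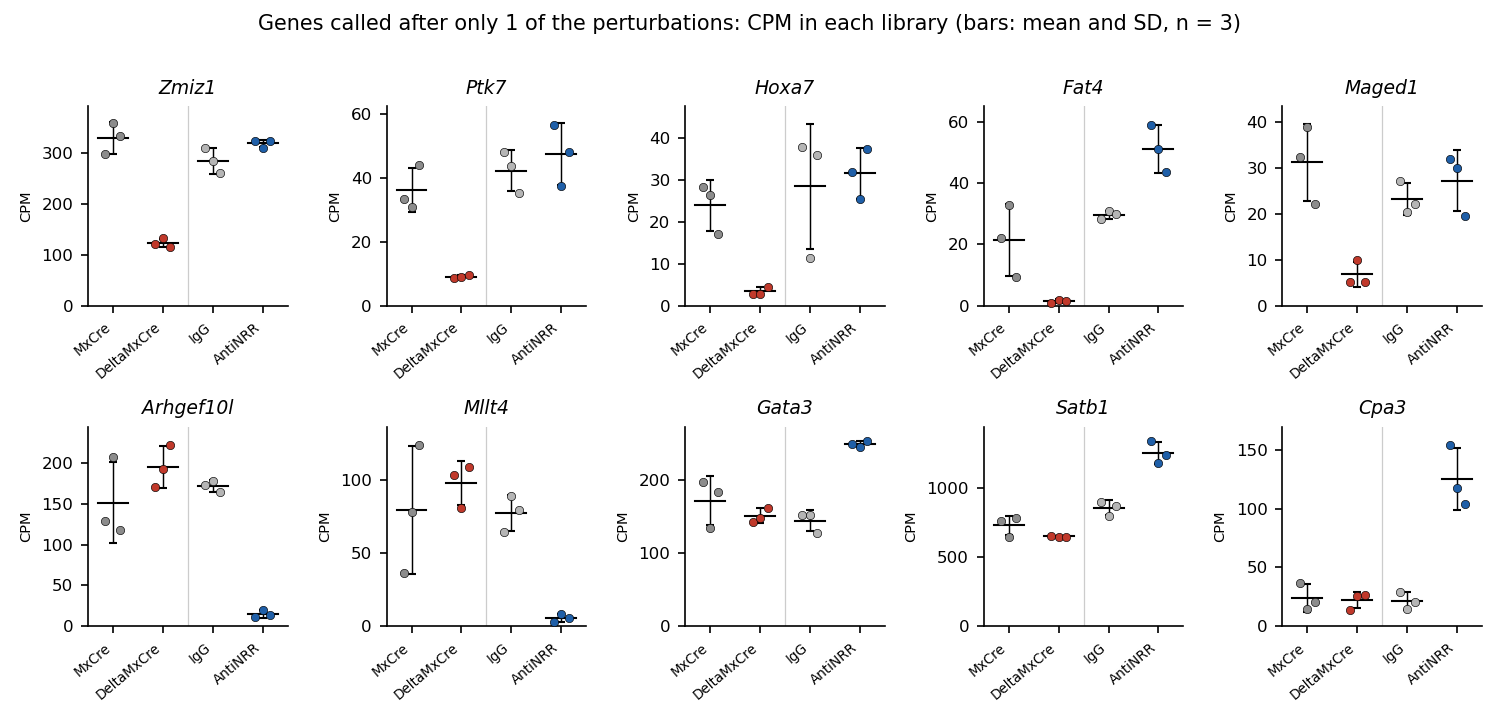
CPM in each library (points), with the group mean and SD (bars, n = 3), for 10 genes with a called difference and a called effect in only 1 comparison. Zmiz1, Ptk7, Hoxa7, Fat4 and Maged1 are low in DeltaMxCre, Arhgef10l and Mllt4 are low in AntiNRR, and Gata3, Satb1 and Cpa3 are high in AntiNRR.

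The other genes among the 12 largest differences in each direction were mostly at low levels. Gm15708 (2.91 ± 0.50), Gm11346 (3.23 ± 0.60), Mxra7 (−2.53 ± 0.51) and Tdrd5 (−2.31 ± 0.43), a tudor-domain gene of the germ line, kept the call of the difference in every alternative. Phxr4 (3.23 ± 0.79), Gm13807 (3.44 ± 0.85), Dennd3 (2.93 ± 0.71), Gprasp2 (−2.86 ± 0.65) and the linker histone gene H1fx (−2.23 ± 0.57) lost it without any 1 of 7, 9, 10, 5 and 10 libraries (up to 0.156). Further genes were chosen after their values were seen. B4galnt2, a glycosyltransferase gene, stood at 6.75, 16 and 9.65 CPM in MxCre and 34.9, 49.3 and 65.8 CPM in DeltaMxCre, above the 9.89 to 16.6 CPM of the antibody groups (difference 2.60 ± 0.42, adjusted p = 0.000611). H2-Q4, a class Ib MHC gene with close relatives that may share its reads, averaged 63.8 ± 7.54 CPM in MxCre, 113 ± 3.32 in DeltaMxCre, 45.4 ± 2.86 in IgG and 42.3 ± 5.61 in AntiNRR (difference 0.93 ± 0.22, adjusted p = 0.0245). Soat1, a cholesterol-esterifying enzyme gene, went from 285 ± 32 to 517 ± 57.3 CPM in AntiNRR and was at 205 ± 28.6 and 199 ± 14.3 CPM in MxCre and DeltaMxCre (difference −0.90 ± 0.17, adjusted p = 0.00454).

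Which group stood out was also read from the levels. Among the 167 genes, the group mean farthest from those of the other 3 groups was AntiNRR in 77, DeltaMxCre in 58, MxCre in 24 and IgG in 8. The 24 genes with MxCre farthest were all low there, and all have a positive difference. In 15 of them, which is 15 of the 167 called genes, every MxCre library lay below all 9 others. Over all genes tested, the share with MxCre farthest and its libraries outside the range of the other 9, in either direction, was 3.46%. By the same measure, AntiNRR was outside in 67 of the 167 genes (7.73% of all genes tested). DeltaMxCre was outside in 50 (3.2% of all genes tested) and IgG in 4 (1.03%). For the farthest mean alone, no share over all genes was computed. Zfp488, chosen after its values were seen, stood at 202, 237 and 178 CPM in MxCre and at 281 to 458 CPM in the other 9 libraries, and Pydc4, a pyrin-domain gene, had 10 counts in all over the 3 MxCre libraries, against means of 5.04, 7.09 and 8.77 CPM in DeltaMxCre, IgG and AntiNRR. The Pydc4 difference (adjusted p = 0.0165) was not called without DeltaMxCre 3 or IgG 2 (up to 0.11).

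Position added 1 shared feature. Of 166 called genes with RefSeq coordinates, 22 (13.3%) had another called gene within 50 kb, against 2.44% of the 13524 tested genes with coordinates. These formed 11 pairs, 10 of them with the same sign. Spats2 and Kcnh3 lie 11.3 kb apart on chromosome 15, both with a negative difference. Cd82 and the predicted gene Gm13807 (chromosome 2, 93403547–93417830) lie 1.3 kb apart, both with a positive one. Ptk7 and Cul7, a cullin gene, lie 20.3 kb apart. In most of the 11 pairs the gene bodies overlap, among them the opposed genes Abhd15 with Trp53i13 and Smok4a with 2700054A10Rik. The strand setting of the authors' counting is not given, so reads of overlapping partners may not be told apart.

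Several gene lists held no called difference by edgeR's test. Since 1.23% of all genes tested had one, 0 among the members of a list is near the background, and 1696 of the 13557 genes (12.5%) had a difference with an unadjusted p under 0.05. The 60 MYC target and nucleolar genes had 0 (2 by DESeq2, unadjusted p under 0.05 for 11), with 34 falls in AntiNRR and 8 in DeltaMxCre, and medians of −0.59 and −0.35. The median difference of 0.22 stands against −0.01 over all genes. Among all genes tested, 2.40% fell in AntiNRR and 1.27% in DeltaMxCre. Ncl, the nucleolin gene, was at 1245 ± 90.1 and 748 ± 19.1 CPM in IgG and AntiNRR, and at 1604 ± 136 and 1309 ± 111 CPM in MxCre and DeltaMxCre (difference 0.44 ± 0.15, adjusted p = 0.168). The 77 cytosolic ribosomal protein genes had 0 (0 by DESeq2, unadjusted 6), with 15 falls in DeltaMxCre and 3 in AntiNRR. Genes of this family have processed pseudogenes that may share their reads.

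The 38 S phase and 25 mitosis genes had 0 called differences by edgeR and by DESeq2, and 0 with an unadjusted p under 0.05. The 34 interferon-stimulated genes had 0 (0 by DESeq2, unadjusted 6), with a median of 0.64 in DeltaMxCre and 0.21 in AntiNRR and 3 and 1 rises. Glycolysis, BCL2 family and ATF4 genes had 0 each (0 by DESeq2, unadjusted 2, 1 and 1). Cholesterol synthesis genes had medians of −0.49 in DeltaMxCre and −0.05 in AntiNRR, with 3 falls and 0. Among all genes tested, 1.67% rose and 1.27% fell in DeltaMxCre, and 1.66% rose and 2.40% fell in AntiNRR. The early thymic progenitor list had 0 (2 by DESeq2, unadjusted 5). Its member Bcl11a fell in DeltaMxCre (−2.03 ± 0.31, adjusted p = 0.000355) with −0.45 ± 0.29 in AntiNRR, and missed for the difference (−1.58 ± 0.42, adjusted p = 0.0575).

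**Figure D5:**
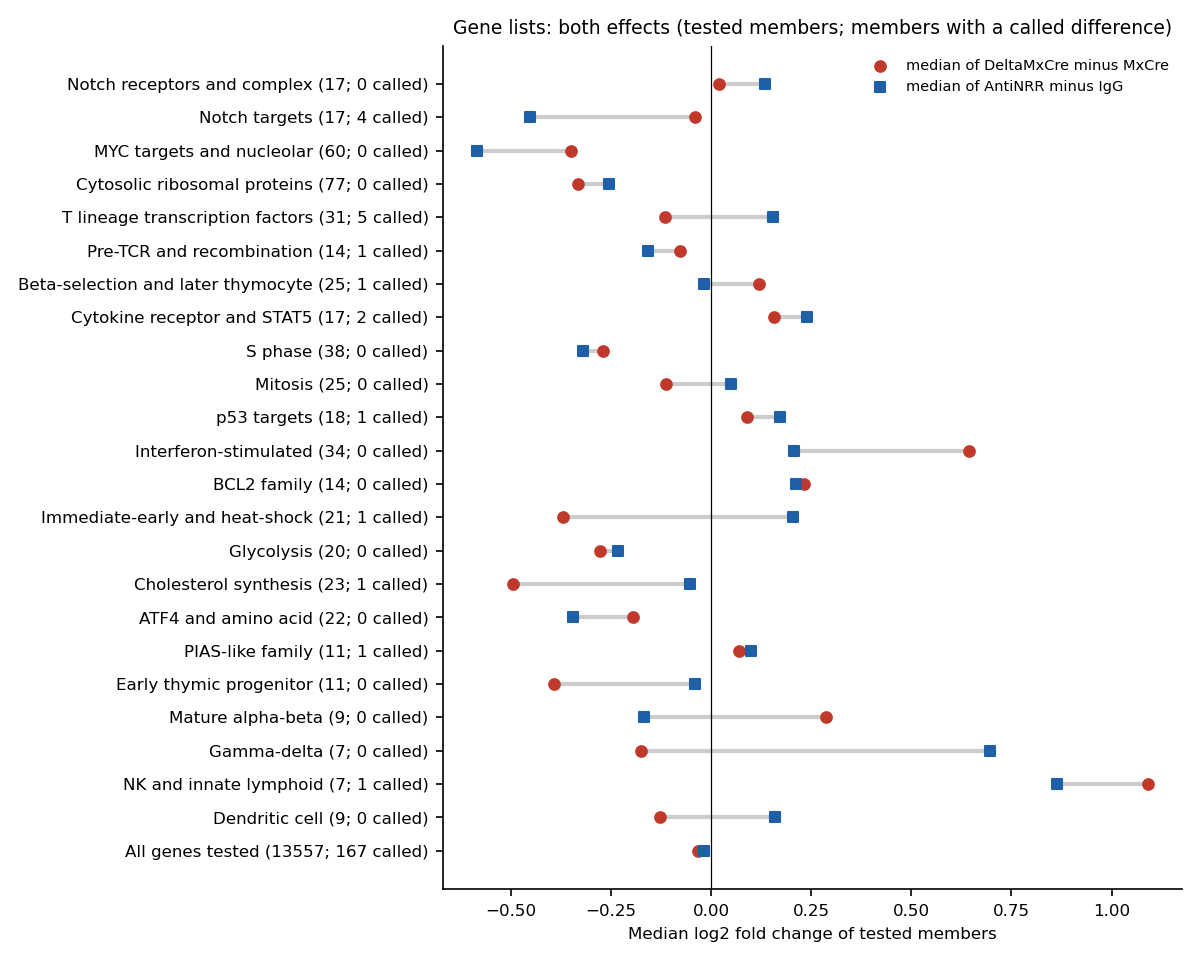
Median log2 fold change of the tested members of each gene list with at least 7 tested members, for DeltaMxCre over MxCre (circles) and AntiNRR over IgG (squares); the label gives the number tested and the number with a called difference. Notch targets (medians −0.04 and −0.45) and cholesterol genes (−0.49 and −0.05) are spread apart in opposite order, and ribosomal protein genes (−0.33 and −0.25) lie close together.

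The remaining calls among list members were single genes. Cd2, an adhesion gene that rises at beta-selection, had 19.8, 12 and 10.1 CPM in DeltaMxCre, 1.49, 0.999 and 11.1 in MxCre, 0.627, 0.757 and 0.372 in IgG and 1 count in all in AntiNRR. Its difference (adjusted p = 0.0294) was missed when DeltaMxCre 1 or any 1 of the 6 antibody libraries was left out (up to 0.199). Gzma, the granzyme A gene of cytotoxic cells, went from 123 ± 12.5 to 224 ± 13.4 CPM in AntiNRR and from 151 ± 56.2 to 88.5 ± 15.2 CPM in DeltaMxCre, with neither effect called by edgeR's test over the 12 libraries (adjusted p = 0.1 and 0.0543) and a difference of −1.63 ± 0.32 (adjusted p = 0.0269; up to 0.109 and not called unless the library left out was MxCre 2, MxCre 3 or DeltaMxCre 1). Both Gzma effects were called with DESeq2 (0.0108 and 0.00153), without robust shrinkage, with all 20 libraries and without MxCre 2 (0.000229 and 0.000207). The AntiNRR effect was also called under both other scalings and without MxCre 3 (0.0108) or DeltaMxCre 3 (0.0463). The summed NK and innate lymphoid list, led by Gzma, was 101 to 212 CPM in MxCre and DeltaMxCre, 126 to 160 CPM in IgG and 238 to 268 CPM in AntiNRR, with Ncr1 at 0. B cell, myeloid, dendritic cell, erythroid, thymic epithelial, mature alpha-beta and gamma-delta lists had 0 called differences by edgeR (unadjusted p under 0.05 for 0, 1, 0, 0, 1, 2 and 4 genes), and by DESeq2 2 gamma-delta genes were called. Summed levels of some of these lists moved with a group. The gamma-delta list, led by Sox4, which early T cells also express, summed to 607 to 647 CPM in IgG and 857 to 906 CPM in AntiNRR (535 to 690 in MxCre and 496 to 639 in DeltaMxCre). The mature alpha-beta list summed to 441 to 680 CPM in MxCre and 742 to 995 CPM in DeltaMxCre (463 to 542 in IgG and 523 to 593 in AntiNRR). The early thymic progenitor list, led by Cd24a, summed to 932 to 1010 CPM in IgG and 1170 to 1520 CPM in AntiNRR (798 to 951 in MxCre and 775 to 901 in DeltaMxCre). The part of these cells in the differences was not tested.

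In the authors' deposited table of group means and fold changes, all 13 opposed genes had folds in opposite directions, and for 10 both q-values were under 0.1. These values come from the same libraries. The authors' deposited table gives Bst1 a fold of 1.76 in DeltaMxCre and 0.417 in AntiNRR, and gives Spats2 folds of 0.479 and 1.96. Opposite folds in the authors' deposited table were seen for 103 genes with both q-values under 0.1, and 10 of them were opposed by edgeR's test, while 227 genes had folds in the same direction.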

How the data were processed

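RNA of sorted DN3 thymocytes was sequenced in 4 groups of 3 SMARTer libraries. The submitters' processing notes name TopHat2 2.0.9, Bowtie2 2.1.0.0, Cufflinks, Cuffdiff 2.1.1, FastQC 0.10.0 and the build mm10. No source used here gives the annotation, the strand or how reads were assigned to genes. The authors deposited expected counts under a sheet name that carries CuffDiff, and 98.41% of the values are whole numbers. Their second table gives, per the file headers, FPKM for each group, a fold change (the ratio over control), p-values and q-values.

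After rounding, the 12 libraries entered 1 robust quasi-likelihood fit in edgeR 4.0.16 (R 4.3.3), with TMM scaling, edgeR's default filter on low counts and Benjamini-Hochberg adjustment over all tested genes. The contrast was the DeltaMxCre effect minus the AntiNRR effect, and calls are at an adjusted p under 0.05. An SE belongs to a log2 fold change and draws on the spread in all 4 groups; an SD belongs to CPM across 3 libraries. Coordinates are RefSeq's for GRCm38.p6 (mm10), matched by identifier for 13524 of 13557 genes. The procedure was tested on simulated data, in which most 4-fold differences but a minority of 2-fold ones were recovered, and the share of false calls was above the nominal level, so single calls near the threshold are less certain than their adjusted p. Alternatives were other scalings, filters and tools (limma 3.58.1, DESeq2 1.42.0), the fit of 20 libraries, a replicate block, and leaving out each library. The fit without Rn45s was chosen after seeing the data.

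Members, gene lists and tests were chosen with earlier results of these data known. Named genes are the 12 largest differences in each direction with a mean of at least 5 CPM, all opposed genes, list members with a called difference or among the 2 lowest p-values of their list, and a short set of Notch and T lineage genes. A gene among these is not reported here. No pair of the 66 possible among the 12 libraries was a duplicate. Same-numbered libraries of different groups did not deviate together.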

Additional observations from a re-analysis of the deposited data

How the results depend on the processing

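Each result was computed under 22 alternatives. The number of genes with a called difference (167) was 343 with DESeq2's Wald test and 444 in a fit of all 20 libraries, and ranged from 99 without IgG 2 to 290 without MxCre 3. The DeltaMxCre count (399) was 695 with DESeq2, 853 with all 20 libraries and 183 with the 6 libraries of that comparison alone, and ranged from 138 without DeltaMxCre 2 to 434 without AntiNRR 1. The AntiNRR count (551) was 1080 with all 20 libraries, and ranged from 257 without IgG 2 to 817 without MxCre 3. The number of opposed genes (13) was 21 without a filter on low counts, 34 with DESeq2 and 31 with all 20 libraries, and ranged from 8 without DeltaMxCre 3 or IgG 3 to 33 without MxCre 3, of which 11 were among the 13. The causes of these shifts were not tested.

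Labels number the libraries 1 to 3 in each group. Of 18 same-numbered pairs, 0 deviated together with a correlation above 0.1 (−0.0487 to 0.0526), so the numbers were not taken as pairs. With a replicate block the difference was called for 211 genes, the DeltaMxCre effect for 496, the AntiNRR effect for 634, and 22 genes were opposed.

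Of 47 named genes with a called difference, 30 kept the call in every alternative and 0 reversed. The share of called differences that were positive was 61.7%, and 53.8 to 65% over the alternatives. Signs turned for differences that were never called. With 1 library left out, the difference for Myc ran from −0.11 (without IgG 1) to 0.54, for Lef1 from −0.082 (without AntiNRR 1) to 0.12 and for Cenpa from −0.0044 (without IgG 1) to 0.86. Cd74 was at 0.55 with limma voom.

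With 3 libraries a group and a median SE of 0.397, small differences were not detectable at this depth.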

Other observations

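Zmiz1 was also deleted with tamoxifen-inducible Cre in libraries made with the TruSeq kit (DeltaTamCre and TamCre, 4 libraries each). They entered the results above only through the fit of all 20 libraries. Between DeltaTamCre and TamCre, 12 of 13460 genes (0.0892%) were called by edgeR's test. By that test 0 of the 13 opposed genes were called (unadjusted p under 0.05 for 6), and all 13 had the sign of their DeltaMxCre effect, with sizes of 0.164 to 0.816 on the log2 scale. The sign was the same in both deletions for 68.2% of the 12819 genes tested in both and for 75% (123 of 164) of the genes with a called difference. Bst1 was at 85.8 ± 16.4 CPM in TamCre and 104 ± 10.5 CPM in DeltaTamCre, and Spats2 at 70.3 ± 12.6 and 53.1 ± 1.95 CPM. Of the 4 Notch targets with a called difference, Dtx1 was at 453 ± 55.1 and 536 ± 66.7 CPM, and 0 of the 4 were called (unadjusted, 2). Tbrg3 had 0.774 CPM in TamCre, against 44.9 to 140 CPM in the SMARTer libraries.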
